A study of Mus musculus with 4 samples.

Results

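The NF-κB system was described through 10 genes, namely the subunits Nfkb1, Nfkb2, Rela and Relb, the inhibitors Nfkbia, Nfkbib and Nfkbie, the nuclear IκB proteins Nfkbiz and Bcl3, and the ubiquitin-editing inhibitor Tnfaip3. Its members were every array probe whose transcript accession belongs to one of these genes, which gave 14 probes out of 39429 that were not controls, and 10 genes out of 19751 that a probe names. RNA came from C2C12 cells, an immortalised mouse myoblast line that fuses into myotubes in low serum, on day 3 of differentiation. The treated cells had interferon-gamma (IFN-γ) at 1 ng/ml in the differentiation medium, and the control cells had the medium with no cytokine; the horse serum shared by both is given as 2% in one label and 10% in another. On each of 4 arrays of 2 colours the treated RNA carried Cy5 and the control RNA Cy3, with no array of the opposite orientation, so that a dye bias and the treatment cannot be told apart. The unit below is the log2 ratio of treated over control after loess normalisation within each array, given as mean ± SD over the arrays, and a probe passed the test at an adjusted p under 0.05 (limma, Benjamini-Hochberg over 28934 tested probes). The labels number the treated samples as biological replicates but leave the origin of the control RNA unsaid, and p-values thus reflect array-to-array spread that may in part be technical.

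NF-κB is a family of dimeric transcription factors that IκB proteins hold in the cytoplasm. In the canonical pathway, kinases activated by cytokine and Toll-like receptors have IκBα degraded, and dimers of p50 and RelA enter the nucleus. In the non-canonical pathway, p100, the product of Nfkb2, is cut to p52, which pairs with RelB. Nfkbia, Nfkbie, Tnfaip3, Nfkb2, Relb and Bcl3 are themselves known targets of NF-κB, which makes their transcripts part of a feedback loop, and in muscle cells NF-κB is known to hold back differentiation.

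The promoters of the members were examined for κB sites because several members are known targets of NF-κB. RefSeq sequences (GRCm38.p6) of 300 bases, from 250 before to 50 after each annotated start, were held for 7 of the 10 genes in 10 windows; Nfkb1, Relb and Nfkbiz had none. Both strands were searched for the κB consensus, the 10-letter motif bound by NF-κB dimers, and matches that overlap were all counted. A match was found in 5 of the 7 genes, Nfkb2, Nfkbia, Nfkbie, Tnfaip3 and Bcl3, against 9.55% of 27025 genes in the table and 8.46% of all 32851 windows. A core of the interferon-stimulated response element (GAAA repeated after any 2 bases) was found in 0 of the 7, against 3.99% of genes. These are matches of letters in a short window. The stretches of 250 bases before the first annotated start of Nfkb2 (chr19:46304487-46304736, plus strand) and before the start of Nfkbia (chr12:55492648-55492897, minus strand) are printed whole, since the first gene fell and the second encodes the best known feedback inhibitor. For Nfkbie (chr17:45555584-45555613, plus strand), Tnfaip3 (chr10:19015516-19015545 and chr10:19015403-19015432, minus strand) and Bcl3 (chr7:19822734-19822763, minus strand) 30 bases around each match are given, and capitals mark the κB matches.
Nfkb2 upstream: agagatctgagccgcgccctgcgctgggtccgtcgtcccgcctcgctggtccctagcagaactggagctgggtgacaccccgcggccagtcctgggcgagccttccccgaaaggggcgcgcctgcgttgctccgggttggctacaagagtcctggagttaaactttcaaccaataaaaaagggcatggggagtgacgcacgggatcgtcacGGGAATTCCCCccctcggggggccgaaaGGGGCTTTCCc
Nfkbia upstream: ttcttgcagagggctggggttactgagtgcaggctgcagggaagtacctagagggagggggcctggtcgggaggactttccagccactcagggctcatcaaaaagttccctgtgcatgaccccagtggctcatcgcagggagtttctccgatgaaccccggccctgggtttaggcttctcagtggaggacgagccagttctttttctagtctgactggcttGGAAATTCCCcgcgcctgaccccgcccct
Nfkbie site: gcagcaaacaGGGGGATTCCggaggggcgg
Tnfaip3 first site: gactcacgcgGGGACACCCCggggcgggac
Tnfaip3 second site: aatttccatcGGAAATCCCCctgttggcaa
Bcl3 site: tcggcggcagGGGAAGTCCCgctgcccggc

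Nfkb2 had 3 matches before its first start, of which the first and second overlap by all but 1 base at 39 and 38 bases before the start, and the third begins 11 bases before it. The match of Nfkbia began 29 bases before its start, that of Nfkbie 106 bases before, those of Tnfaip3 125 and 12 bases before the second of its annotated starts (the window of its first start held 0 matches), and that of Bcl3 2 bases after its start. Of these 5 genes with a match, Nfkb2 and Bcl3 fell and Nfkbia, Nfkbie and Tnfaip3 did not pass the test, as described below.

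All 10 genes were measured on every array, with each of the 14 probes well above background in both channels on 4 of 4 arrays and saturated on 0. Expression of Nfkb2, Rela, Relb and Bcl3 fell and that of Nfkbiz rose by their brightest probes, with changes under 2-fold, and the other 5 genes did not pass. In this count 1 of 10 was higher and 4 of 10 were lower, against 18.7% and 12.9% of the 15684 tested genes, and 5 of 10 changed in either direction, against 31.7%. On 4 of 4 arrays 2 members were higher and 4 lower, against 29.5% and 22.7% of genes. A change of at least 2-fold that passed was seen in 0 members, against 1.79% of genes higher and 0.956% lower. By probe, 2 of 14 were higher and 4 lower, against 16.5% and 12.6% of tested probes (29.1% in either direction). The median of the 10 genes was −0.21, against 0.03 for all tested genes. These directions hold relative to the bulk of probes of like intensity. Under median centring, which puts the median of all genes at 0.70, 10 members were higher and 0 lower. Over all 28934 tested probes that scaling gave 16462 higher and 6335 lower. With centring on the tested probes (median 0.22), 5 members were higher and 0 lower, against 10484 and 10989 of all tested probes. The share of higher among all called probes was 56.8% under loess, 72.2% under median centring and 48.8% with centring on the tested probes. Without replicates 1, 2, 3 and 4 in turn, 0, 2, 0 and 0 members were higher and 1, 6, 1 and 3 lower. Over the 28934 tested probes the same runs gave 2917, 6321, 1913 and 2137 higher and 1953, 5548, 1160 and 1268 lower. In RNA of whole cultures, a change in the share of cells of one kind and a change in RNA per cell cannot be told apart.

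**Figure D1:**
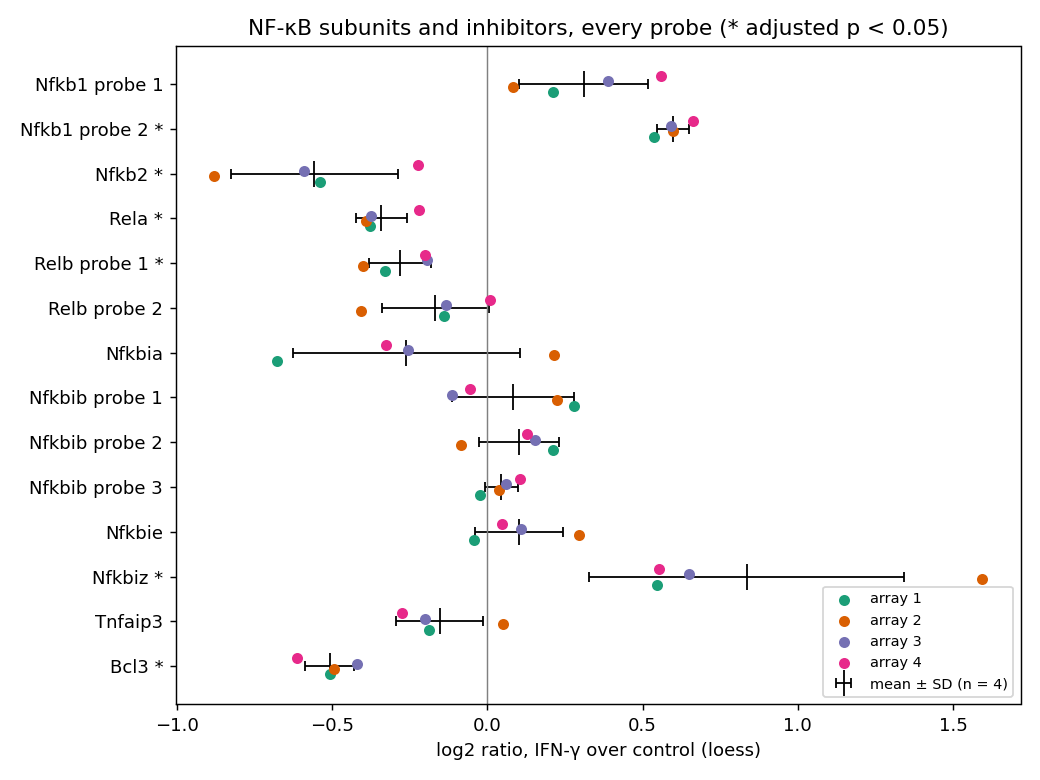
Log2 ratio of IFN-γ over control (x axis, loess) for each of the 14 probes of the 10 genes, with 1 coloured point per array, a black tick at the mean and a bar of 1 SD (n = 4), and a star at probes with an adjusted p under 0.05. Nfkb2, Rela, Bcl3 and the first probe of Relb lie below 0 on all arrays, while both probes of Nfkb1 and that of Nfkbiz lie above it, with array 2 of Nfkbiz at 1.59; under median centring the means of the first 4 named turn positive.

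Among the subunits, both genes of the non-canonical pair were lower in treated cells under loess by their brightest probes. Nfkb2, which encodes p100 and p52, had log2 ratios of −0.54, −0.88, −0.59 and −0.22 on arrays 1 to 4. All 4 lay below 0, lowest on array 2 and closest to 0 on array 4. The mean was −0.56 ± 0.27 (SD, n = 4, adjusted p = 0.0159), a level 1.47-fold lower than in control cells. Its normalised log2 intensity ranged from 11.11 to 11.39 in the control channel and from 10.41 to 10.89 in the treated channel, with no overlap. Relb, the partner of p52, had −0.33, −0.40, −0.20 and −0.20 on its brighter probe, with a mean of −0.28 ± 0.10 (adjusted p = 0.0259). Its second probe had −0.14, −0.41, −0.13 and 0.01, and its mean of −0.17 ± 0.17 did not pass (adjusted p = 0.184, 95% interval −0.37 to 0.04). The probes thus differed in call though their means lay within 1 SD of the second. Nfkb2 did not pass without replicates 1 and 3 (adjusted p = 0.0591 and 0.0802). Relb did not pass without replicates 1, 3 and 4 (0.096, 0.0843 and 0.079) or in the gene-level fit on the mean of probes (0.0528). Under median centring Nfkb2 had 0.43 and Relb 0.71.

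Of the canonical pair, Rela fell and Nfkb1 was higher on every array with 1 of 2 probes past the threshold. Rela, which encodes the transactivating subunit p65, had −0.38, −0.39, −0.38 and −0.22. The mean of −0.34 ± 0.08 (adjusted p = 0.0124) is a 1.27-fold lower level, and 3 arrays lay within 0.02 of each other with array 4 nearer to 0. Rela did not pass without replicates 1 and 3 (adjusted p = 0.0539 and 0.0735), and under median centring it had 0.68. Nfkb1, which encodes p105 and p50, had 0.21, 0.08, 0.39 and 0.56 on its brighter probe, a mean of 0.31 ± 0.21 that just missed the threshold (adjusted p = 0.0533, 95% interval 0.08 to 0.54). On its second probe the 4 arrays had 0.54, 0.60, 0.59 and 0.66, the tightest set among the probes that passed, and the mean of 0.60 ± 0.05 (adjusted p = 0.00233) is 1.51-fold. Control levels of that second probe ranged from 7.75 to 8.10 and treated levels from 8.34 to 8.76, so that its channels did not overlap, whereas those of the brighter probe did. The gene-level fits passed Nfkb1 as higher, with adjusted p = 0.0451 on the brightest probe and 0.00508 on the mean of both probes.

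The paralogues Nfkb1 and Nfkb2 moved apart on every array. The log2 ratio of Nfkb1 minus that of Nfkb2, taken within each array on the brightest probes, was 0.75, 0.96, 0.98 and 0.78, with a mean of 0.87 ± 0.12. Under median centring, where the constant taken from an array cancels between genes, the same difference was 0.78 ± 0.12. Loess takes off an amount that varies with intensity, so the values under the scalings need not match. Rela minus Relb was −0.06 ± 0.08, with both signs among the arrays, and Nfkb1 minus Rela was 0.65 ± 0.15, above 0 on 4 of 4 arrays. These pairs were chosen as paralogues or dimer partners with the values known, and their differences are given without a test.

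Nuclear IκB proteins, which bind NF-κB dimers on DNA and can raise or lower transcription, moved in opposite directions under loess, while under median centring Bcl3 turned to 0.43 and stayed below the median of all genes. Nfkbiz encodes IκBζ, a coactivator of secondary response genes. Its ratios were 0.55, 1.59, 0.65 and 0.55, all above 0, with array 2 far above the 3 others. The mean was 0.84 ± 0.51, a 1.78-fold rise (adjusted p = 0.0239), and without replicate 2 it was 0.58 (adjusted p = 0.000837). Its control levels ranged from 8.69 to 9.32 and its treated levels from 9.46 to 10.28, and array 2 held both the lowest control and the highest treated level. Without replicates 1, 3 and 4 the mean was 0.93, 0.90 and 0.93 but the adjusted p rose to 0.0546, 0.0814 and 0.0690. Bcl3, which partners p50 and p52 homodimers, had −0.51, −0.49, −0.42 and −0.61. Its mean was −0.51 ± 0.08, a 1.42-fold lower level (adjusted p = 0.00419), and its control levels of 10.18 to 10.46 all lay above its treated levels of 9.76 to 9.94. By its brightest probe, Bcl3 was the single member past the threshold with any 1 replicate left out, with adjusted p from 0.00166 to 0.0315, and the second probe of Nfkb1 also passed each time. Nfkbiz minus Bcl3 was 1.05, 2.09, 1.07 and 1.16 on the 4 arrays under loess, and 1.25 ± 0.52 under median centring.

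**Figure D2:**
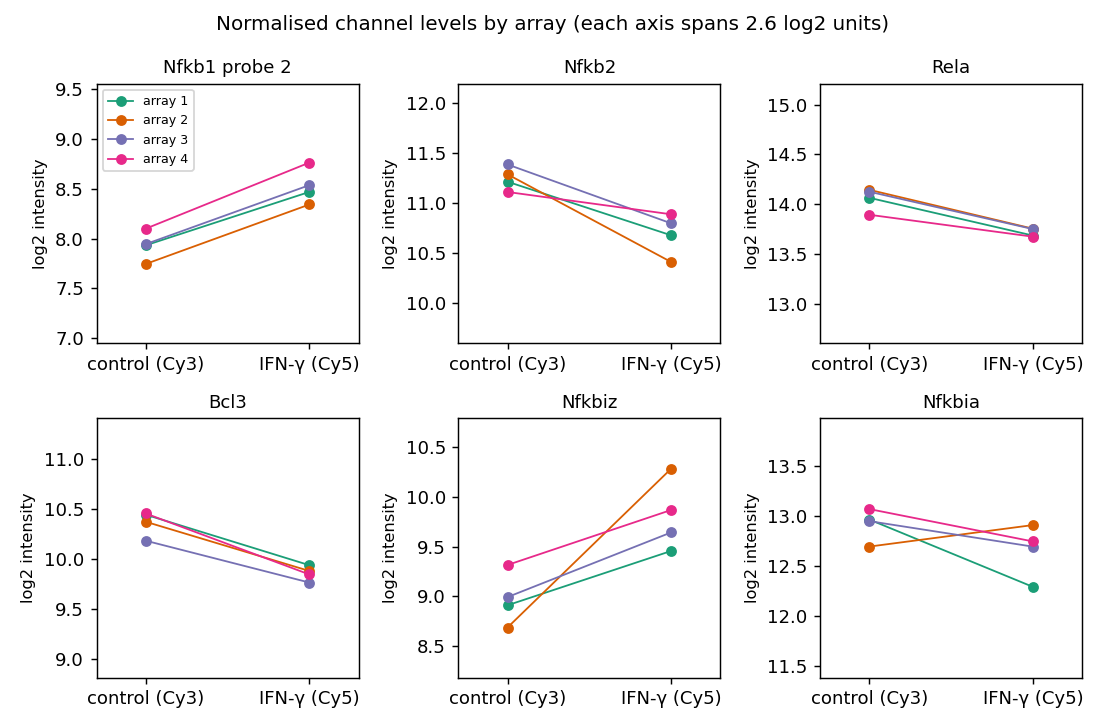
Normalised log2 intensity (y axis) of 6 probes in the control channel (Cy3) and the IFN-γ channel (Cy5), with 1 line per array. Every axis spans the same range, so slopes can be compared between panels but levels cannot, since each probe has its own brightness. Lines of Nfkb2, Rela and Bcl3 all fall, those of the second Nfkb1 probe and of Nfkbiz all rise, and those of Nfkbia cross; the falls of the means depend on the loess and turn under median centring.

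The cytoplasmic inhibitors did not pass the test. Nfkbia, which encodes IκBα, the inhibitor that NF-κB quickly re-makes after activation, had −0.68, 0.22, −0.26 and −0.33. Array 2 alone lay above 0, and the mean was −0.26 ± 0.37 (adjusted p = 0.222, 95% interval −0.61 to 0.09). Without replicate 2 it passed at −0.42 (adjusted p = 0.0117). Control levels of 12.70 to 13.07 and treated levels of 12.29 to 12.91 overlapped. Nfkbib, which encodes IκBβ, was the most densely covered member with 3 probes, and their means were 0.08 ± 0.20, 0.10 ± 0.13 and 0.05 ± 0.05, with adjusted p = 0.531, 0.333 and 0.601. The narrowest 95% interval among them was −0.10 to 0.19. Nfkbie, which encodes IκBε, had −0.04, 0.30, 0.11 and 0.05, with a mean of 0.10 ± 0.14 (adjusted p = 0.356, 95% interval −0.08 to 0.29). Tnfaip3 encodes A20, which removes activating ubiquitin chains from signalling complexes. It had −0.19, 0.05, −0.20 and −0.28, with array 2 again the only one above 0, and a mean of −0.15 ± 0.14 (adjusted p = 0.176, 95% interval −0.34 to 0.03), and without replicate 2 it passed at −0.22 (adjusted p = 0.0321). Under loess the intervals of Nfkbia, Nfkbib, Nfkbie and Tnfaip3 leave out changes of 2-fold but not smaller ones. Under median centring Nfkbia had 0.75, Nfkbib 1.07, Nfkbie 0.99 and Tnfaip3 0.83, before the all-gene median of 0.70 is taken off.

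Ordered by log2 ratio the members ran from Nfkbiz through Nfkb1, Nfkbie, Nfkbib, Tnfaip3, Nfkbia, Relb, Rela and Bcl3 to Nfkb2. Between neighbours in this order the mean within-array difference was smaller than its SD except from Nfkbib to Tnfaip3 (0.24 ± 0.16) and from Rela to Bcl3 (0.17 ± 0.15), each with 1 sign on 4 of 4 arrays. Treated levels lay wholly above control levels in 1 of the 10 genes by the brightest probe and wholly below in 4, against 20.1% and 12.5% of 15621 genes measured on all arrays. Array 2, which correlated least with the others over all tested probes (mean r across probes 0.62, against 0.76 to 0.81), gave a member median of 0.07, while arrays 1, 3 and 4 gave −0.26, −0.20 and −0.21. The array with the highest ratio of Nfkbiz, Nfkbia, Nfkbie and Tnfaip3 and the lowest of Nfkb2, Rela and Relb was array 2 in each case.

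**Figure D3:**
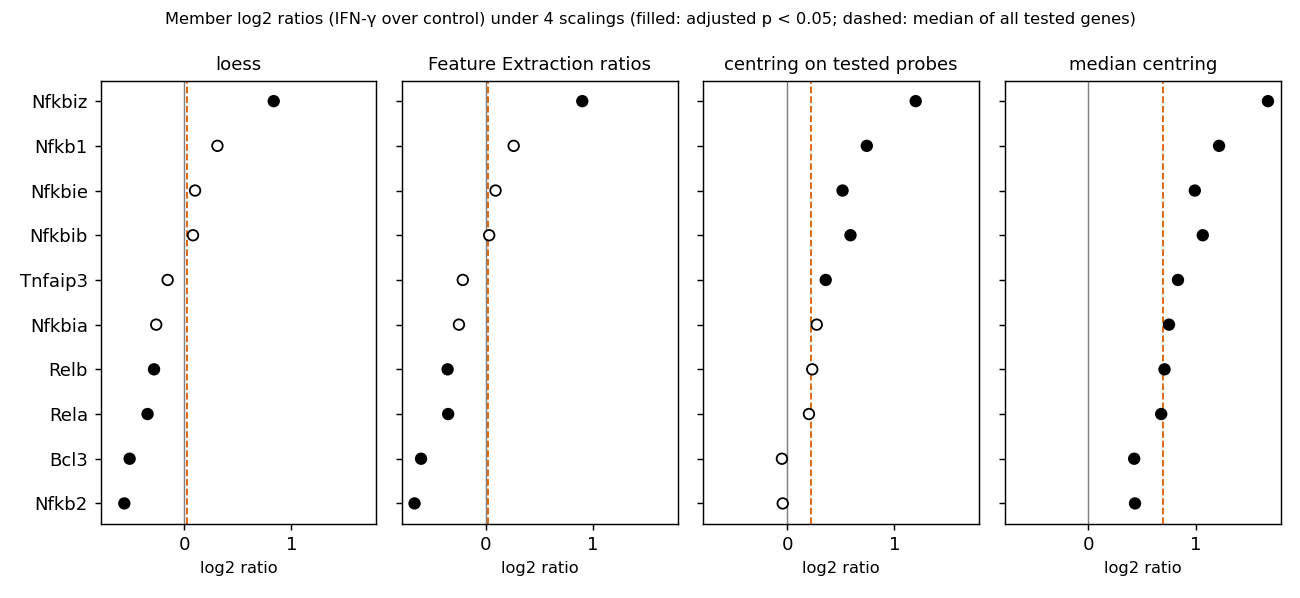
Mean log2 ratio of each member's brightest probe (x axis) under 4 ways of scaling the arrays, with filled points for an adjusted p under 0.05, a grey line at 0 and a dashed line at the median of all tested genes. Nfkb2 and Bcl3 lie to the left of the dashed line and Nfkbiz and Nfkb1 to the right of it in every panel, while Rela and Relb sit on it under both kinds of centring.

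Set against the median of all genes under the same scaling, Bcl3 and Nfkb2 were low and Nfkbiz and Nfkb1 high in every case. Bcl3 had 0.43 and Nfkb2 0.43 under median centring, which is 0.27 and 0.26 below the median, and Nfkbiz had 1.67 and Nfkb1 1.22, which is 0.98 and 0.52 above it. Rela had 0.68 and Relb 0.71 under median centring, within 0.02 of the median of 0.70, so their falls under loess depend on the correction for intensity. Feature Extraction's own ratios, which also correct for intensity, gave −0.35 for Rela and −0.35 for Relb (adjusted p = 0.0416 and 0.0444), −0.66 for Nfkb2 and −0.60 for Bcl3.

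The rest of the pathway was read from 4 lists, in which a gene is represented by its brightest tested probe. Of 26 tested kinases and adaptors, 8 rose and 1 fell, 17 missed the threshold, and the median was 0.19 against 0.03 for all genes, of which 18.7% rose and 12.9% fell. Rnf31, which encodes HOIP, the catalytic subunit of the linear ubiquitin ligase, rose by 0.97 ± 0.18 (adjusted p = 0.00173) and by 0.73 ± 0.17 on its second probe. Ripk1, a kinase and scaffold downstream of TNF receptors, rose by 0.76 ± 0.15, Ikbkb, the kinase that marks IκBα for degradation, by 0.51 ± 0.23, and Myd88, the adaptor of Toll-like and interleukin-1 receptors, by 0.42 ± 0.30. Myd88 and Ikbkb did not pass with Feature Extraction's ratios (adjusted p = 0.107 and 0.0521) or by the methods' t-test (0.127 and 0.0612). Without replicates 1, 3 and 4 the adjusted p was 0.147, 0.173 and 0.142 for Myd88 and 0.0531, 0.0784 and 0.0754 for Ikbkb, and with no filter on dim probes that of Myd88 was 0.0515. The single fall was that of Traf1, at −0.39, named here after its value was seen. Traf2, the brightest gene that did not pass, had −0.12 ± 0.16. With Feature Extraction's ratios 5 of the list rose, and without each replicate in turn between 2 (without replicate 3) and 13 (without replicate 2) rose, with 4 and 3 without replicates 1 and 4.

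Of 18 tested ligands and receptors, 5 rose and 0 fell, against 18.7% and 12.9% of all genes, 13 missed the threshold, and the median was 0.07. Under median centring 5 fell, and 7 with centring on the tested probes. Tlr2, a receptor for bacterial lipoproteins, rose by 0.91 ± 0.08 (adjusted p = 0.000765), the smallest spread in the group that rose, and Il1r1, the signalling receptor of interleukin-1, by 0.62 ± 0.26, which did not pass without replicate 3 (adjusted p = 0.0566). Tlr3, a sensor of double-stranded RNA, was not well above background in control cells on any array and was at least 1.66-fold higher in treated cells (adjusted p = 0.00238) under loess, while with centring on the tested probes it had 0.10 and did not pass (adjusted p = 0.432). Il1rap, the co-receptor of Il1r1, was in the same state and at least 1.26-fold higher (adjusted p = 0.029), but under both kinds of centring its sign turned and its second probe did not pass (0.21 ± 0.15). The fifth was Tnfsf13b, at least 1.20-fold higher, named here after its value was seen. For such bounds the control was taken as its measured signal or, where larger, the lowest signal called well above background on that array. Ltbr, the receptor that feeds the non-canonical pathway, had −0.18 ± 0.11 and did not pass. Tlr3, Il1rap and Tnfsf13b entered the test through the treated channel alone. Their adjusted p and their place among the 5 that rose thus depend on that filter. When both channels had to exceed background on every array, 2 of the list rose, Tlr2 and Il1r1. With Feature Extraction's ratios 9 rose. Without replicates 1, 2, 3 and 4 in turn, 3, 7, 2 and 3 rose.

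Of 20 other subunits and inhibitors, 5 were higher, 4 lower and 11 not past the test, with a median of −0.01. These counts lie near the shares of 18.7% and 12.9% over all genes. Cyld, a deubiquitinase that restrains NF-κB and belongs with Tnfaip3 in function, fell, with −1.12, −0.75, −0.33 and −0.86 on the 4 arrays and a mean of −0.77 ± 0.33 (adjusted p = 0.00997). It did not pass under median centring (−0.31, adjusted p = 0.0809), without replicate 4 (0.0578) or by the methods' t-test (0.112). Tax1bp1, an adaptor through which A20 acts, rose by 0.56 ± 0.25, with adjusted p = 0.0704 and 0.0693 without replicates 3 and 4, and Ptpn22, a phosphatase, by 0.64 ± 0.20. Trim30a, a TRIM protein that limits Toll-like receptor signalling, was at least 2.18-fold higher under loess, with no control array well above background. Trim30a thus entered the test through the treated channel alone, and its call depends on that filter. The log2 ratio of Trim30a was 0.97 under median centring and 0.50 with centring on the tested probes, and it passed under both. Pdlim2, which promotes the degradation of p65, had −0.38 ± 0.27 and just missed the threshold (adjusted p = 0.0523). Rel, which encodes the remaining subunit c-Rel and was named after its value was seen, had no control array well above background and is given no fold. Without replicates 1, 2, 3 and 4 in turn, 4, 4, 3 and 2 of this list rose and 1, 6, 1 and 0 fell, and by the methods' unpaired test 4 rose and 0 fell.

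Among textbook NF-κB target genes 19 of 30 rose, 3 fell and 8 missed the threshold, against 18.7% higher and 12.9% lower over all genes, with a median of 0.96 against 0.03. Several of them are also known targets of interferon signalling, so that the count does not separate the pathways. Cxcl10, a T cell chemokine, rose by 4.21 ± 0.56 with 2 of 4 control arrays well above background, and so entered the test through the treated channel alone. Feature Extraction's ratios gave 6.09, so the size of its rise is not settled. Cfb, a complement protease, rose by 3.56 ± 0.22 and Cxcl5, a neutrophil chemokine, by 3.39 ± 0.61, while Irf1, a transcription factor, rose by 2.74 ± 0.20 on its brighter probe and by 0.29 ± 0.12 on its second. The 3 that fell, named after their values were seen, were the cytokine gene Lif at −0.64 ± 0.46, the nitric oxide synthase gene Nos2 at −0.58 ± 0.36 and the early response gene Ier3 at −0.44 ± 0.08. Bcl2l1, an inhibitor of apoptosis and the brightest gene that did not pass, had 0.06 ± 0.30. The number higher stayed between 16 and 25 under every alternative run, while the number lower was 0 under both kinds of centring and 2, 4, 1 and 1 without replicates 1, 2, 3 and 4.

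**Figure D4:**
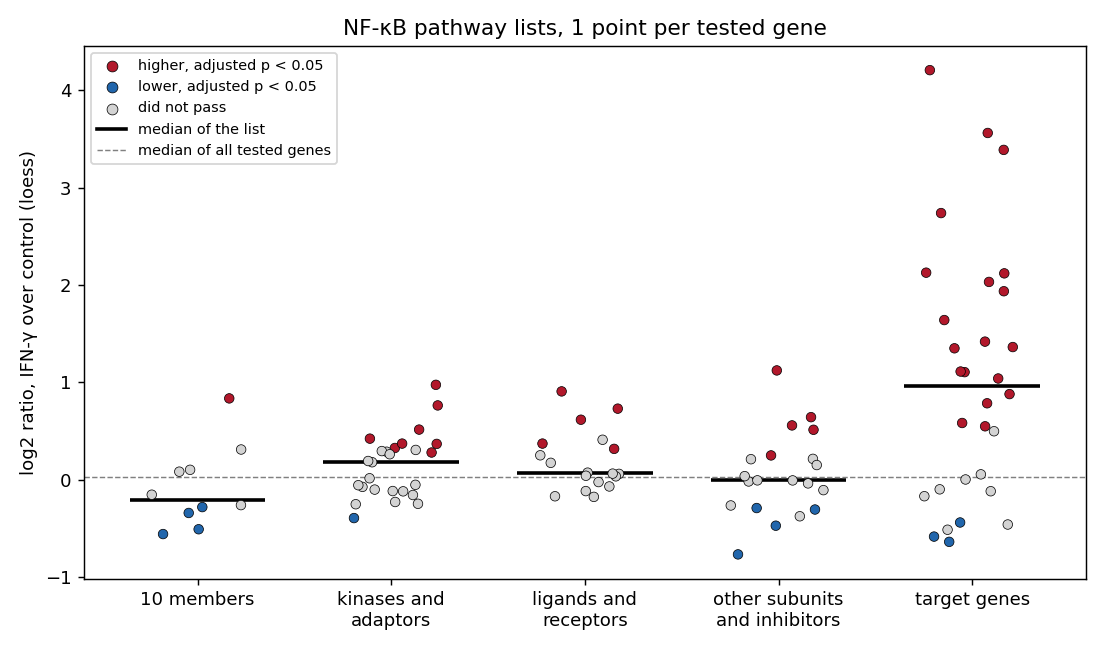
Log2 ratio of IFN-γ over control (y axis, loess) of each tested gene in the 10 members and 4 pathway lists (x axis), coloured by call, with a bar at the list median and a dashed line at the median of all tested genes. The 30 target genes have a median of 0.96, while the medians of the members and of the other lists lie between −0.21 and 0.19; under median centring 0 members and 0 target genes were lower.

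As a check on the labels, Gbp2, an interferon-induced GTPase, rose by 3.68 ± 0.40. Of 16 myoblast and myotube markers 15 were well above background in control cells on 4 of 4 arrays, including Myod1 (−0.02 ± 0.08) and Myog (−0.01 ± 0.40), and 1 rose and 7 fell, among them Des at −1.23 ± 0.26 and Myh3 at −0.62 ± 0.06. Under median centring Des had −0.21 and did not pass (adjusted p = 0.0879), and Myh3 turned to 0.43. With centring on the tested probes Des had −0.68 and passed, and Myh3 had −0.04 and did not. In tested markers of other cells, 1 of 5 for macrophages, 0 of 6 for lymphocytes, 0 of 4 for endothelium and 3 of 6 for fibroblasts rose, and 1, 2, 1 and 1 fell. Beside all these marker counts, the shares over all tested genes were 18.7% higher and 12.9% lower. On 4 of 4 control arrays, 4 of 7 macrophage markers with a probe were well above background. So were 4 of 8 for lymphocytes, 2 of 6 for endothelium and 5 of 8 for fibroblasts. Lyz2, Mrc1, Cd3d, Gzmb, Cdh5, Emcn, Tek, Dpt, Tcf21 and Thy1 were not well above background on any control array. The part of the change in muscle and fibroblast markers in the NF-κB results was not tested. Median intensities per array lay between 78 and 93 in the control channel and between 141 and 248 in the treated channel, and their number, 4, limits the precision.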

How the data were processed

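The members and the pathway lists were chosen with earlier results of these data known. The authors' scanner files hold spot and background intensities and log10 ratios of Cy5 over Cy3 from Feature Extraction 10.7.3.1 (Agilent), per the file headers, and the authors' deposited value table is in log2 units, per the labels' design text (GeneSpring GX). Against the scanner ratios of tested probes its slope was 3.32 on all 4 arrays, which gives it the direction Cy5 over Cy3. The medians of its columns ranged from −0.124 to −0.105, and its centring is unknown. Median signals were corrected with normexp (offset 50), normalised by loess with control spots at weight 0, cleared of outlier-flagged spots and averaged per probe (limma 3.58.1, R 4.3.3). The plan did not state mean or median signals; the files hold medians. Channel levels followed Aquantile normalisation. Probes well above background in 1 channel on at least 3 of 4 arrays were tested (lmFit and eBayes, intercept only, two-sided), and a gene was called by its brightest tested probe. Of 39429 probes, 26055 had 1 symbol through the RefSeq table, 0 several and 13374 none. On simulated ratios for 28934 probes, 69% of log2 changes of 1 and 13% of changes of 0.5 were recovered. Only a small part of the simulated probes carried a change, and their noise was set above the observed spread. These rates therefore do not carry over to the real fit, in which 29.1% of tested probes were called. Named genes were all members, up to 4 called genes with the largest change and the brightest uncalled gene per list, the 3 genes nearest in pattern to the leading member, and checks of label, of which 1 is not reported here. Array coordinates were not used, since the headers name a build other than that of the gene table.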

Additional observations from a re-analysis of the deposited data

Results flagged for a closer look

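Of 43 sets of 4 array values examined, 5 held 1 array that stood apart by a gap of more than 0.829 of the range, where chance gives about 1 in 20; of the 5, Usp22 was chosen for its likeness to Nfkbiz and is no independent case. Nfkbiz had 1.59 on array 2, and Usp22 had 1.41 on the same array. Rela had −0.22 on array 4. Trim30a had 1.63 on array 1 and Pdlim2 had −0.78 on array 2.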

How the results depend on the processing

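Member counts of 1 higher and 4 lower were 10 and 0 under median centring, 5 and 0 with centring on the tested probes, 2 higher in both gene-level fits, and 0 to 2 higher and 1 to 6 lower without each replicate. Over all probes 4776 were higher and 3637 lower; median centring gave 16462 and 6335, centring on the tested probes 10484 and 10989, the methods' t-test 2364 lower, and leaving out replicates 1913 to 6321 higher and 1160 to 5548 lower. Kinases and adaptors had 24 higher and 0 lower under median centring, 17 higher with centring on the tested probes, 5 higher with Feature Extraction's ratios, the authors' value table and the methods' t-test, 2 lower with the mean of probes, and 2 to 13 higher and 0 to 1 lower without each replicate. Ligands and receptors had 10 higher and 5 lower under median centring, 7 lower with centring on the tested probes, 9 higher and 1 lower with Feature Extraction's ratios and with the authors' value table, 2 higher with both channels above background, and 2 to 7 higher without each replicate. Other subunits and inhibitors had 15 higher and 1 lower under median centring, 9 higher with centring on the tested probes, 3 higher with both channels above background, 0 lower by the methods' t-test, and 2 to 4 higher and 0 to 6 lower without each replicate. Target genes had 0 lower under both kinds of centring and 1 to 4 lower without each replicate. The signs that turned under median centring were those of Bcl3 (0.43), Nfkb2 (0.43), Rela (0.68), Relb (0.71, and 0.78 on its second probe), Nfkbia (0.75), Tnfaip3 (0.83), the third Nfkbib probe (−0.083), Ltbr (0.84), Pdlim2 (0.65), Traf2 (0.89), Il1rap (−0.13), Myh3 (0.43), Myod1 (0.97) and Myog (1.02). With centring on the tested probes they were those of Rela (0.20), Relb (0.24 and 0.31), Nfkbia (0.28), Tnfaip3 (0.36), the third Nfkbib probe (−0.56), Ltbr (0.37), Pdlim2 (0.18), Traf2 (0.42), Il1rap (−0.61), Myod1 (0.49) and Myog (0.55). The third Nfkbib probe had −0.0046 with no background subtraction. Without replicates the signs of Bcl2l1 (range −0.093 to 0.12), Myod1 (−0.047 to 0.015) and Myog (−0.12 to 0.17) turned. Centring by a constant does not correct ratios that vary with intensity; other causes were not tested. The within-array ratios are paired by array; the methods' t-test, with no replicate block, drops this pairing and gave 1 member higher and 4 lower. Small changes near background are limited by the dimmer control channel.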

Other observations

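The study's own criteria, an unpaired test with a change of at least 2-fold, would list none of these genes by the brightest probe. With the methods' t-test on the channel values, 5 of the 10 members passed after Benjamini-Hochberg adjustment. Over all 28934 tested probes 3952 passed as higher and 2364 as lower. Of the members 0 passed with a change of at least 2-fold, against 411 probes higher and 241 lower of the same 28934. The highest adjusted p among the 5 was that of Nfkbiz, at 0.0444.

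The 3 tested genes whose 4 array ratios lay nearest to those of Nfkbiz by Euclidean distance over the 4 arrays were Usp22, Kif4 and Stk35. Usp22, which encodes a deubiquitinase of the SAGA complex, had 0.48, 1.41, 0.56 and 0.50. Kif4, a chromosome-associated kinesin, had 0.57, 1.44, 0.74 and 0.70, and Stk35, a kinase, had 0.53, 1.70, 0.59 and 0.81. Their high values on array 2 follow from their choice by likeness to Nfkbiz.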
